A study of Mus musculus with 4 samples.

Results

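Cytosolic ribosomal protein genes were examined in islet cells of 60-week-old C57BL/6 mice, labelled male, after ex vivo exposure to MOTS-c, a short peptide encoded in the mitochondrial 12S rRNA gene, or to a scrambled control peptide. Islets were taken from 4 littermates and dispersed to single cells, and each peptide was given at 10 μM for 24 h. Total RNA of 2 samples per group was hybridised to 1-colour Agilent arrays, named here after the numbers in their titles as scrambled 1, scrambled 2, MOTS-c 2 and MOTS-c 3. The labels name no allele and no second treatment, and they do not say whether a sample was 1 mouse, so the p-values measure the spread between these samples only. The genes were chosen by name: symbols that begin with Rpl or Rps followed by a number, together with Rpsa, Rplp0, Rplp1 and Rplp2, and without the S6 kinase genes. This gave 85 genes, measured by 146 probes, among 22911 named genes on the array. They comprised 77 ordinary ribosomal protein genes, of which 31 encode proteins of the small subunit and 46 of the large subunit, 6 paralogs with names ending in l and 2 with names ending in l1. A further 4 symbols that fit the rule, all annotated as pseudogenes (Rps12l1, Rpl6l, Rps3a2 and Rps3a3), had no probe here. Each gene was represented by its brightest probe.

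The cytosolic ribosome joins a small subunit, which reads the mRNA, to a large subunit, which forms the peptide bond, and each ordinary ribosomal protein occurs once per subunit except for the acidic stalk proteins. The mRNAs of these proteins are among the most abundant in any cell, and they are known for a tract of pyrimidines directly at the 5′ end, the terminal oligopyrimidine or TOP motif, through which mTORC1, a nutrient-sensing kinase complex, controls how actively they are translated. The study addressed mTORC1 in islet and β-cells, and the arrays measure the level of these mRNAs and not their translation. Some paralogs replace an ordinary protein in particular tissues, as Rpl3l does in heart and skeletal muscle and Rpl10l and Rpl39l do in the testis.

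The start sites of a few members are shown because they hold, or lack, the motif for which this gene family is known. The sequences are from RefSeq, build GRCm38.p6, and each has 15 bases before the annotated transcription start and 15 bases from it. Capitals mark the motif as searched, a C at the start itself followed by at least 4 bases that are each C or T, read on the strand of the gene.
Rps6, small subunit, chr4:86857353-86857382, minus strand: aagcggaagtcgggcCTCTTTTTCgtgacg
Rplp2, large subunit, chr7:141447636-141447665, plus strand: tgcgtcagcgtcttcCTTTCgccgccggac
Rps27, small subunit, chr3:90213634-90213663, minus strand: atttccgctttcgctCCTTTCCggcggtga
Rpl32l, paralog, chr10:20208424-20208453, plus strand: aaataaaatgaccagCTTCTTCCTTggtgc
Rps27l, paralog, chr9:66946071-66946100, plus strand: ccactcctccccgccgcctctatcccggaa
Rpl37, large subunit, chr15:5116598-5116627, plus strand: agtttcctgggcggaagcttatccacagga
Rps4x, small subunit, chrX:102189377-102189406, minus strand: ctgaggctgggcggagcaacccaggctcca

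The first 4 windows held the motif at the annotated start, with the longest of these runs, 10 bases, in Rpl32l. The windows of Rps27l, Rpl37 and Rps4x did not hold it, and a second annotated start of Rps27l did not either. Of the 85 members, 64 had a promoter entry. The motif was found in 13 of 57 ordinary members (22.8%) and in 1 of 7 paralogs, against 813 of 27025 genes with an entry (3.01%). These shares describe the annotated starts, not starts measured in these cells. Rpl13 was counted without the motif, although its entry gave no sequence for the window.

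The labels call the samples islet cells. Of the markers, 6 of 7 for β-cells, 2 of 3 for α-cells and both for δ-cells were well above background on all 4 arrays. The same held for 2 of 3 macrophage, 1 of 3 lymphocyte and 1 of 3 endothelial markers. It held for 0 of 1 PP-cell, 0 of 3 duct and 0 of 3 mesenchymal markers. Of 5 acinar markers, 2 were well above background on all 4 arrays, and their summed level was 11.8 and 11.9 log2 units with scrambled peptide, against 11.3 and 10.96 with MOTS-c. Cela1 was lower with MOTS-c (difference -0.76) and Ctrb1 was not (0.33). Among the β-cell markers, Slc2a2, a dim probe well above background on 3 arrays, differed by -1.33. Ins1, Ins2 and Pdx1 were also lower (-0.039, -0.050 and -0.28), and Iapp, Mafa and Nkx6-1 were higher (0.072, 0.16 and 0.12). The part of cell composition in the results was not tested. The label male stands against 0 of 28 readings of Y-linked probes well above background and Xist well above background on 4 of 4 arrays. Between 61.6% and 65.0% of gene spots were well above background per array, and no gene spot was saturated. No probe of 35087 tested passed an adjusted p of 0.05 with limma and Benjamini-Hochberg adjustment (0%), the smallest adjusted p being 0.474, and 2755 probes (7.85%) had an unadjusted p under 0.05.

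After quantile normalization, the ordinary ribosomal protein genes showed nearly equal levels in MOTS-c-treated and scrambled-treated islet cells. All 77 were well above background on all 4 arrays. Apart from Rpl37, all of them were brighter than at least 96.4% of the probes tested, with mean signals from 15.04 to 18.03 on the log2 scale. The median difference, MOTS-c minus scrambled, over the 77 genes was -0.0014 log2 units, beside 0.014 over all probes tested, with 38 genes on the higher and 39 on the lower side. Over the 81 members that passed the filter on dim probes, which also take in 4 paralogs, 69 (85.2%) differed by less than 0.1 log2 units, beside 37.7% of all probes tested. Among the 1274 probes at least as bright as the dimmest ordinary member other than Rpl37, 72.3% lay within the same limit and the median was -0.0026. The median SD within a group was 0.040 for the members, 0.059 for these 1274 bright probes and 0.152 for all probes. In bulk RNA, fewer cells of a type and less RNA per cell cannot be told apart.

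**Figure D1:**
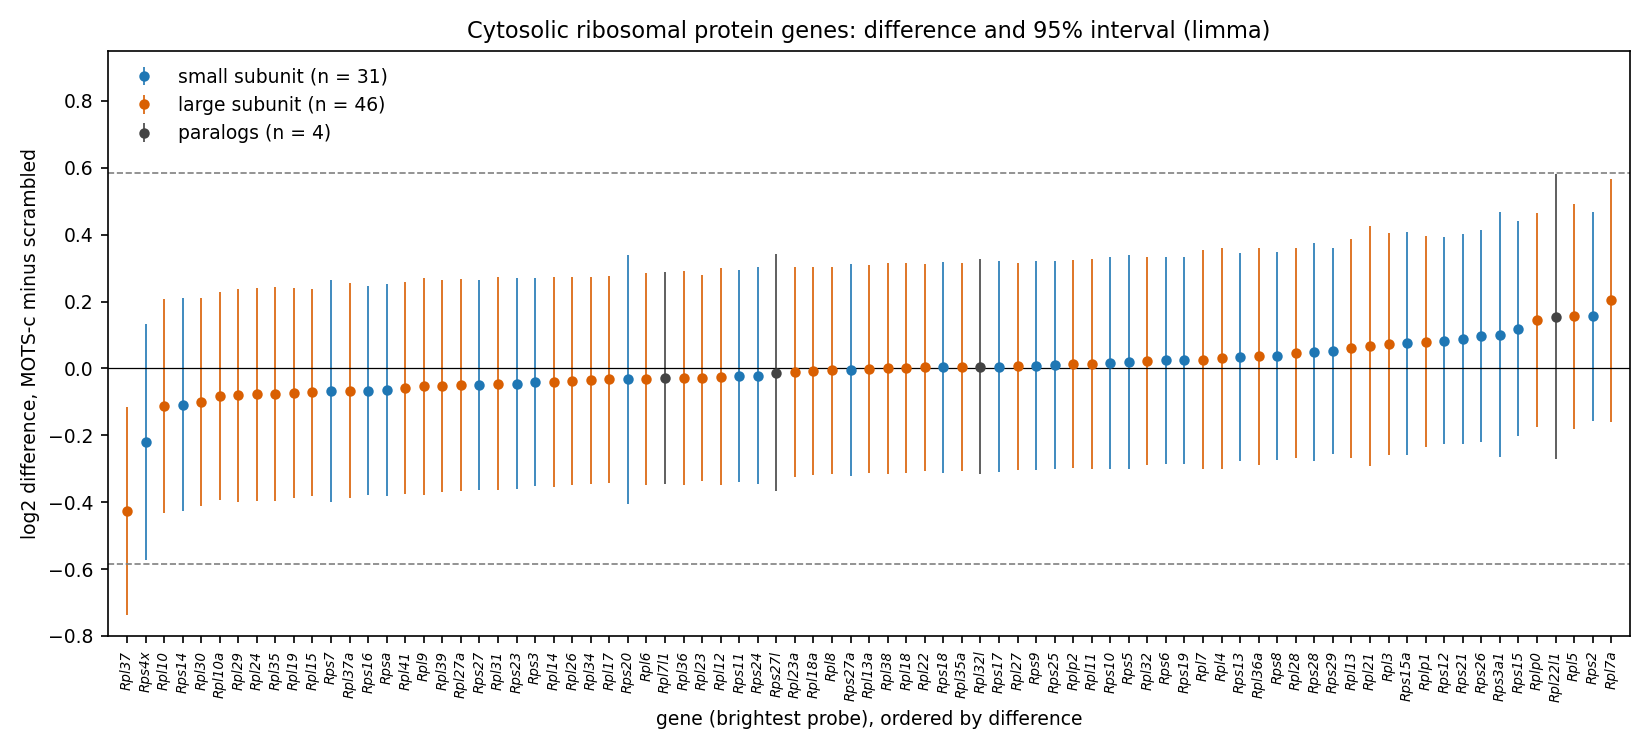
Difference between MOTS-c and scrambled arrays (log2 units, points) with its 95% interval from limma (lines) for the 81 ribosomal protein genes tested, ordered by difference and coloured by class, with dashed lines at 1.5-fold. The intervals of all genes other than Rpl37 include 0 and lie between the dashed lines.

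None of the 81 members tested passed an adjusted p of 0.05 in limma. At an unadjusted p under 0.05 there was 1 (Rpl37), against 7.85% of all probes and 4.82% in its direction, lower with MOTS-c. On the higher side there were 0, against 3.03%. No member differed by 1.5-fold or more, against 5.24% of probes, or 3.53% when an unadjusted p under 0.05 was required as well. When limma was given an intensity trend, which sets a smaller expected spread for bright probes, 5 members passed the unadjusted threshold, against 8.39% of probes. These were Rpl7a, Rps2 and Rplp0 on the higher and Rps4x and Rpl10 on the lower side, and Rpl37 was not among them. The methods' t-test gave 5 as well, against 6.59% of probes, and shared 1 (Rps2) with the trend. The 95% intervals of the 80 members other than Rpl37 ran from -0.57 at the lowest to 0.58 at the highest. A change of 1.5-fold (0.585 log2 units) in either direction thus lay outside each of them, while smaller changes did not. These intervals hold for quantile normalization only. With each array shifted to its 75th percentile instead, the median SE of the members was 0.172, against 0.120 after quantile normalization. Both MOTS-c arrays lay on the same side of both scrambled arrays for 32 of 81 members (39.5%), close to the 38.0% of all probes. Of these, 13 were higher with MOTS-c, against a background of 19.4%, and 19 were lower, against 18.6%.

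**Figure D2:**
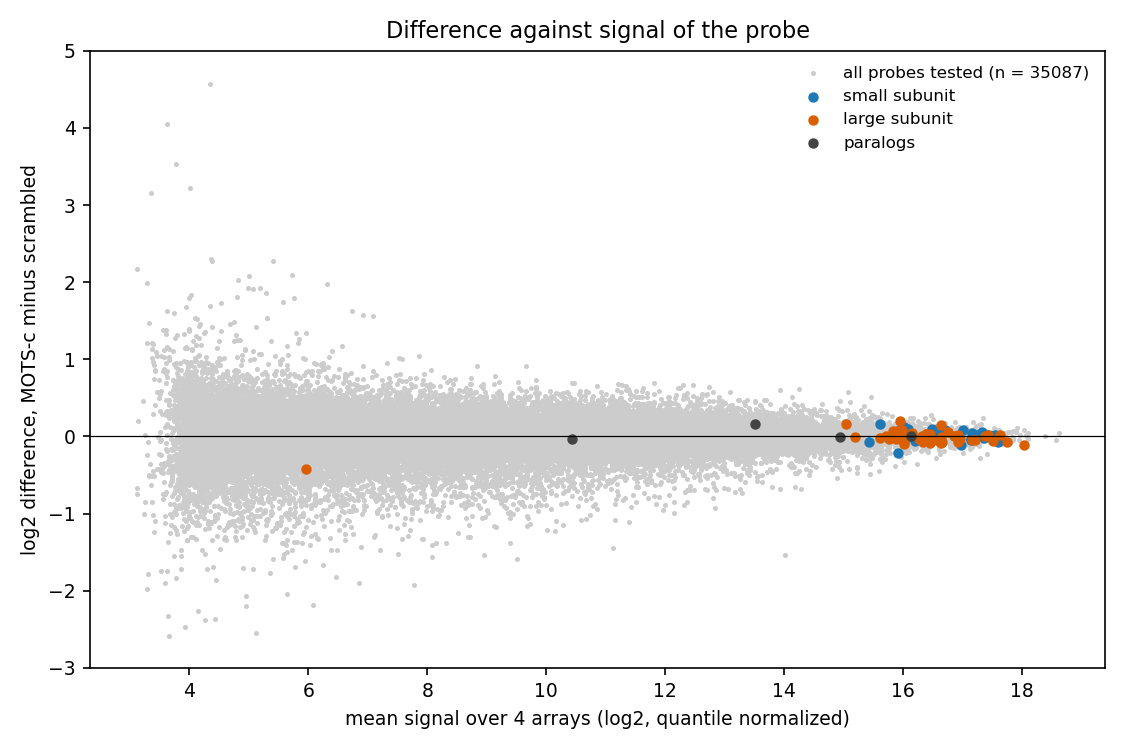
Difference between MOTS-c and scrambled arrays (log2 units) against the mean log2 signal for the 35087 probes tested (grey) and for the brightest probe of each of the 81 ribosomal protein genes tested (coloured by class). The ribosomal protein genes crowd at the bright end near 0, where all probes spread less, and Rpl37 is the only one among the dim probes.

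The 2 subunits were described apart. In the small subunit the median difference was 0.010, with 19 genes higher and 12 lower, and the groups did not overlap for 9 on the higher side (29.0%, against 19.4% of all probes) and 5 on the lower side (16.1%, against 18.6%). In the large subunit the median was -0.017, with 19 higher and 27 lower, and without overlap there were 4 on the higher side (8.70%) and 14 on the lower (30.4%). These medians turned on the processing, since the large-subunit median was 0.0031 without MOTS-c 3 and, after shifting each array to its 75th percentile in place of quantile normalization, both were below 0, at -0.054 and -0.093. No test was made between the subunits.

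Rpl37, a small zinc-binding protein of the large subunit, had the largest difference of all members. Its probe read 6.14 and 6.19 log2 units in the scrambled group, against 5.74 on each MOTS-c array. The MOTS-c arrays thus lay below both scrambled arrays, with a difference of -0.43 (SE 0.12, 95% interval -0.74 to -0.11), an unadjusted limma p of 0.0177 and an adjusted p of 0.539. This was the only ordinary member whose brightest probe was dim, brighter than 22.2% of the probes tested, with a spot signal of 3.75 and 3.82 times the local background on the scrambled arrays, and no further probe of the gene was on the array. With normexp background correction the difference was -0.15 and the unadjusted p no longer passed.

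Among the other ordinary members whose groups did not overlap, the 5 lowest differences were small. Rps4x, the X-linked form of protein S4 of the small subunit, read 15.94 and 16.13 in the scrambled group, against 15.79 and 15.84 with MOTS-c. The difference was -0.22 (SE 0.13), an adjusted limma p of 0.754, and it was -0.12 without scrambled 2, the array that read highest. Rpl10, a late-joining protein near the catalytic centre of the large subunit, read 18.10 and 18.08 against 18.03 and 17.92. The difference of -0.11 had a 95% interval that included 0, and the same held for Rps14 (-0.11), Rpl30 (-0.10) and Rpl10a (-0.084). All 3 probes of Rpl30 gave negative differences, -0.10, -0.091 and -0.20, but they read the same samples and are not replicates.

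On the higher side, Rpl7a, a protein of the large subunit, read 15.96 and 15.75 in the scrambled group against 16.02 and 16.10 with MOTS-c, a difference of 0.20 (SE 0.14, adjusted limma p 0.778). Its second probe gave 0.085 with overlapping groups. Rps2, at the mRNA entry of the small subunit, read 15.51 and 15.57 against 15.70 on both MOTS-c arrays. The difference was 0.16 (SE 0.12, adjusted limma p 0.801), and the second probe gave 0.15 with overlapping groups. Rpl5, which with Rpl11 and 5S rRNA binds the p53 regulator Mdm2, read 14.92 and 15.002 against 15.05 and 15.19, a difference of 0.16. Its partner Rpl11 differed by 0.014 with overlapping groups. With Rplp0 of the stalk, Rps15 (0.12) and Rps26 (0.097) completed the 6 largest differences without overlap on this side, and none of the 6 passed the unadjusted threshold in limma without the trend.

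The stalk proteins, which recruit translation factors to the large subunit, were not uniform. Rplp0, the base of the stalk, read 16.53 and 16.60 with scrambled peptide, against 16.75 and 16.68 with MOTS-c. Both MOTS-c arrays were above both scrambled arrays, by 0.15 on average (SE 0.12, adjusted limma p 0.821). Rplp1, one of its acidic partners, differed by 0.080 without overlap, and Rplp2, the other, by 0.012 with overlap. Rplp0 is often taken as a reference transcript, and so is Rpl13a, which differed by -0.0014.

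The other members with a part outside the ribosome or in signalling differed by less than 0.1 log2 units. Rps6, the small-subunit protein that S6 kinase phosphorylates downstream of mTORC1, read 16.49 and 16.51 against 16.54 and 16.51. The difference of 0.024 had no overlap between groups but was -0.042 after the 75th percentile shift. Rpsa, also known as a laminin receptor, differed by -0.064, and Rps3, which also has a DNA repair role, by -0.041, both without overlap. Rpl26, a regulator of p53 translation, differed by -0.038 without overlap. Rps19, mutated in Diamond-Blackfan anaemia, differed by 0.024 with overlap. Rps27a, made as a fusion with ubiquitin, differed by -0.0044 with overlap.

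The paralogs fell into 2 sets by detection. Rpl3l and Rpl39l were well above background on no array, with spot signals of 0.892 to 1.26 and of 0.81 to 1.097 times the local background. Rpl10l was well above background on MOTS-c 2 alone, at 1.19 times background, and Rps4l, which the reference annotates as a transcribed pseudogene, on MOTS-c 3 alone, at 1.35 times, although its spot on scrambled 2 read 1.76 times. These 4 did not pass the filter, and no fold is given for them. The ordinary genes they are named for were bright on every array and differed little, by 0.072 for Rpl3, -0.052 for Rpl39, -0.11 for Rpl10 and -0.22 for Rps4x.

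**Figure D3:**
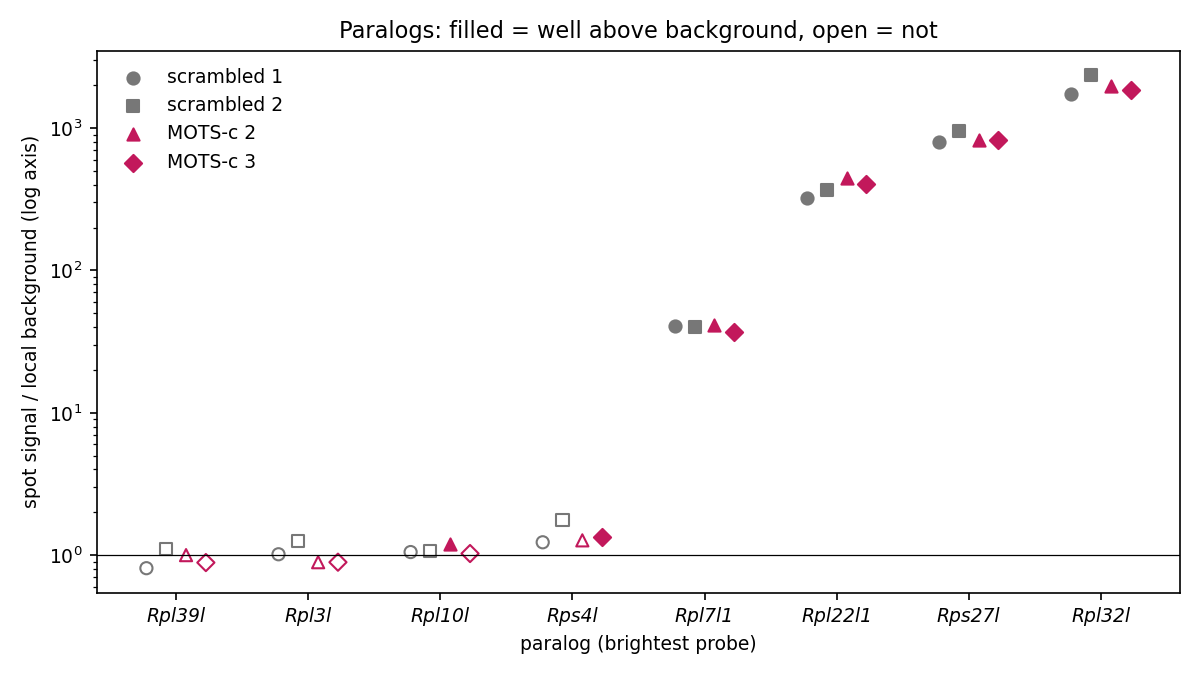
Spot signal over local background (log axis) of the brightest probe of each of the 8 paralogs on the 4 arrays, with filled symbols for spots well above background and open symbols for the others. Rpl39l, Rpl3l, Rpl10l and Rps4l lie near 1, and Rpl7l1, Rpl22l1, Rps27l and Rpl32l are filled on all 4 arrays.

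The other 4 paralogs were well above background on all 4 arrays, and the groups overlapped for each of them. Rps27l, a paralog of Rps27 known as a p53 target, read 14.87 and 15.01 with scrambled peptide, against 14.86 and 15.004 with MOTS-c. The difference was -0.012 (95% interval -0.37 to 0.34), and Rps27 itself differed by -0.049. Rpl32l read 16.08 and 16.18 against 16.15 and 16.12, a difference of 0.0049 (95% interval -0.32 to 0.33), and Rpl32 differed by 0.022. Rpl7l1, which takes part in the assembly of the large subunit, differed by -0.030 and Rpl7 by 0.026. Rpl22l1, the paralog of Rpl22, read 13.26 and 13.61 against 13.58 and 13.60. Here scrambled 1 was the low array and the other 3 were alike, so that the difference of 0.15 (SE 0.16, adjusted limma p 0.857) was 0.32 without scrambled 2 and -0.016 without scrambled 1. Rpl22 differed by 0.0033.

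The ordinary genes and the paralogs were not tested against each other, because only 2 paralogs with names ending in l were measured. Their median difference was -0.0037, beside -0.0014 for the ordinary genes. The reference also lists 321 pseudogenes named after ribosomal proteins, and how far such copies contribute to the signal of a probe was not tested. How far the bright probe of Rpl32l reads the mRNA of Rpl32 was not tested either.

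Several members could be read more than once. In 60 of the 146 probes, the sequence was printed in 10 spots per array, among 300 such probes on the array, and 48 members had at least 1. The log2 SD over the single spots of such a probe had a median of 0.041. The value of the probe is the mean over its spots, so this SD is not comparable with the SD between arrays within a group. For 45 genes with 2 or more probes well above background on all 4 arrays, the differences of the probes spanned a median of 0.052 log2 units, and in 17 genes the probes differed in sign. The span reached 0.2 in 3 genes. In Rps27a the bright probe gave -0.0044, while a second probe, averaging 5.58 in the scrambled and 5.08 in the MOTS-c group, gave -0.50 (SE 0.12, unadjusted limma p 0.0121, adjusted p 0.533). In Rps15a the 2 bright probes gave 0.076 and 0.066 and a dim one -0.14. In Rps24 all 3 probes were bright and gave -0.021, 0.12 and -0.092. The members' lowest values, in Rpl37 and on the second probe of Rps27a, were thus both from dim probes.

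**Figure D4:**
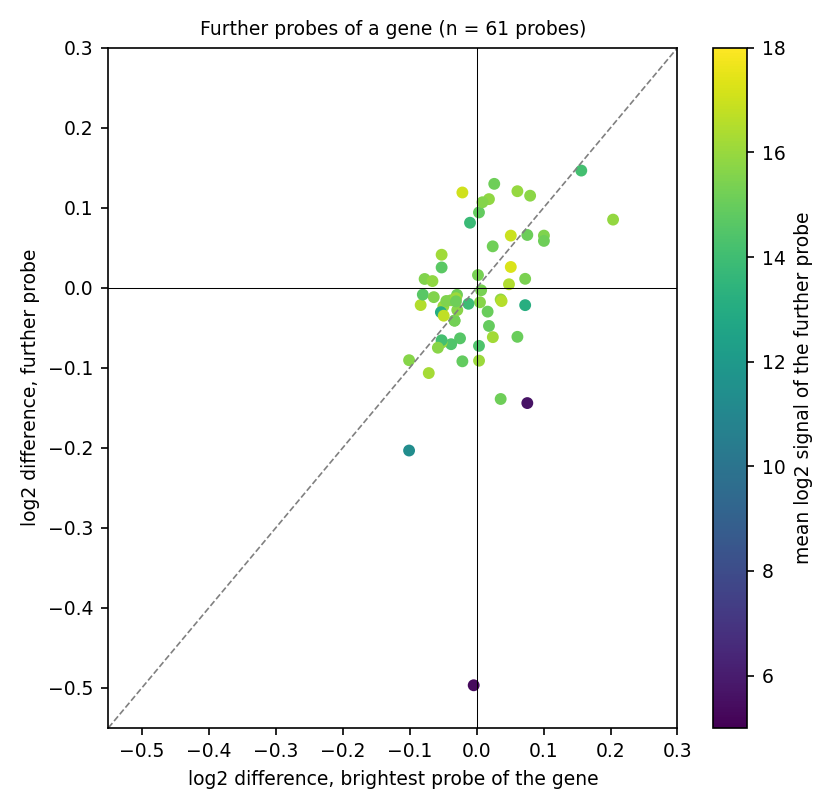
Difference between MOTS-c and scrambled arrays (log2 units) of 61 further probes against that of the brightest probe of the same gene, for 45 genes with 2 or more probes well above background on all 4 arrays, coloured by the mean log2 signal of the further probe. The point far below the others is the dim second probe of Rps27a at -0.50.

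Across arrays, the ordinary members lay at nearly the same level after quantile normalization, which gives every array the same distribution of signals. Apart from Rpl37 they are all among the brightest probes, so this step itself brings their medians close together. Their median deviation from each gene's mean was 0.0081 on scrambled 1, 0.011 on scrambled 2, 0.0086 on MOTS-c 2 and -0.017 on MOTS-c 3. The median absolute difference between the 2 scrambled arrays was 0.047, and it was 0.052 between the 2 MOTS-c arrays, beside 0.164 and 0.189 over all probes. When each array was instead shifted to its 75th percentile, these genes moved together from array to array, with medians of -0.080, 0.16, 0.035 and -0.11 in the same order. The 1273 probes at least as bright as the dimmest of them other than Rpl37 moved alike (-0.070, 0.15, 0.034 and -0.10). For the ordinary members the median absolute difference was then 0.241 between the scrambled and 0.143 between the MOTS-c arrays. It was 0.218 and 0.147 for the probes at least as bright, and 0.18 and 0.21 over all probes. The scrambled arrays thus lay further apart for the ordinary members than for all probes, as they did for the probes at least as bright. Both values of the ordinary members were larger in size than their median difference between groups of -0.074. On this scale 65 of 77 ordinary members were lower with MOTS-c, and so were 991 of the 1273 probes at least as bright (median -0.070), while the median of all probes was 0.0030. The direction of the family as a whole therefore depended on the scaling.

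**Figure D5:**
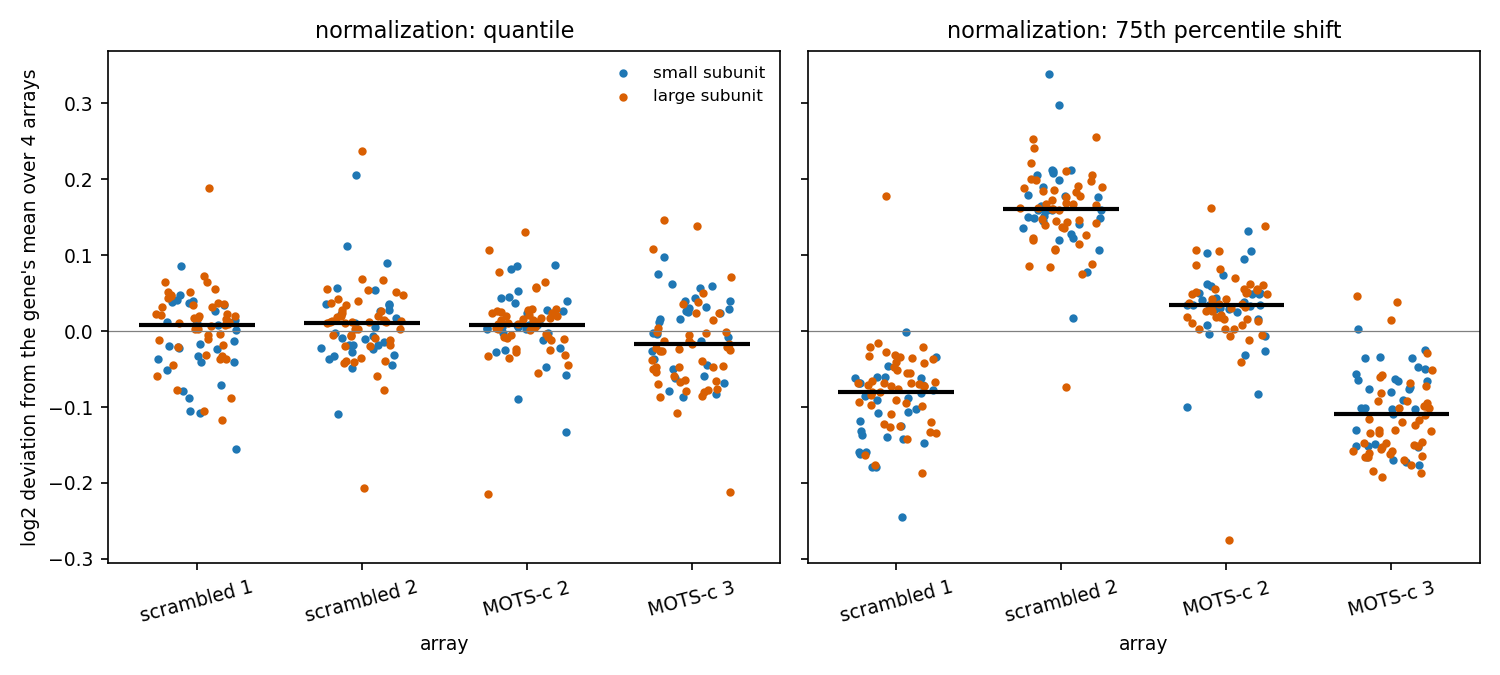
Deviation of each of the 77 ordinary ribosomal protein genes from its own mean over the 4 arrays (log2 units), by array, after quantile normalization (left) and after a shift to the 75th percentile (right), with black bars at the median. The medians lie within 0.017 of 0 on the left and range from -0.11 to 0.16 on the right, where the 2 arrays of a group differ from each other.

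The 13 ordinary members with the pyrimidine motif at their annotated start had a median difference of 0.0036, ranging from -0.076 to 0.089, with 9 higher and 4 lower. The 44 with an entry but counted without it, among them Rpl13 for want of a sequence, had a median of -0.023. After the 75th percentile shift 2 of the 13 were higher and 11 lower, and the medians were -0.070 and -0.094. Apart from Rps6, Rplp2, Rps27 and Rps15a, these were Rpl14, Rpl15, Rpl28, Rpl35, Rpl35a, Rpl38, Rps10, Rps18 and Rps21. The spread of each group of genes covered the other's median.

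The neighbours of the family were flat or more variable. Fau, which encodes a small-subunit protein fused to a ubiquitin-like protein, differed by -0.028, and Rack1, a scaffold on the small subunit, by -0.024, both with overlapping groups. Rpl36al, a paralog of Rpl36a outside the name rule, differed by -0.14, also with overlap. Among 39 translation factors the median was 0.039, and 1 passed an unadjusted p of 0.05, with higher values on the MOTS-c arrays (Eif4g2, named because it passed), against 3.03% of all probes on that side. The largest differences in that list were 0.41 for Abce1, which splits ribosomes for recycling, and -0.36 for Eef1a2, an elongation factor. Among 50 ribosome biogenesis genes the median was 0.051, with 31 higher and 19 lower. Here 1 of the 50 passed an unadjusted p of 0.05, also higher (Riok1, named because it passed), against the same 3.03%. Ncl, the nucleolar protein nucleolin, read 14.26 and 13.61 in the scrambled group, against 14.32 and 14.79 with MOTS-c. Its difference of 0.62 (SE 0.29, adjusted limma p 0.694) was the largest in that list, and about as large as the distance between its scrambled arrays. Fbl, the nucleolar methyltransferase fibrillarin, stood at the other end with -0.19. Of 16 genes of mTORC1 signalling and its outputs, none passed an unadjusted p (7.85% of all probes), with a median of 0.0050.

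The mitochondrial ribosome, which translates only mitochondrial mRNAs and is encoded by separate genes, served as the most similar family. Its 78 genes had a median difference of -0.0072, with 36 higher and 42 lower, and 2 (Mrps18b and Mrpl54, named because they passed) had an unadjusted p under 0.05, both lower with MOTS-c, against 4.82% of all probes in that direction. The groups did not overlap for 34 of 78 (43.6%, against 38.0% of all probes). Of these genes, 66.7% differed by less than 0.1 log2 units, beside 85.7% of the ordinary cytosolic members. The families were not tested against each other.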

How the data were processed

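Intensities of 4 1-colour Agilent arrays, extracted by the authors with Feature Extraction 11.0.1.1 (design build mm9), were used as deposited, as the processed signal that is already corrected for background. The table of values that the authors deposited holds the same intensity rounded. Control and outlier spots were left out, log2 signals were averaged over the spots of a probe, and probes well above background (flag of the scanner software) on at least 2 of 4 arrays were kept (35087 of 56605). Quantile normalization followed, as in the study's methods, and the 2 groups were compared over all these probes by limma (version 3.58.1, R 4.3.3; 2 residual and 2.64 prior degrees of freedom), with Benjamini-Hochberg adjustment. The limma step was also run on simulated data, with spreads shuffled over probes and changes larger than any difference of a member. That run therefore could not show how well small changes of bright probes are found. Probes were named through RefSeq accessions (32994 matched). With 2 arrays per group, the number of arrays limits the precision.

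The members, lists and named genes were chosen with earlier results of these data known. Named were every paralog and the gene it is named for, the 6 largest differences each way without overlap between groups, members with a further role, the 3 with the least similar probes, and the largest differences of the companion lists.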

Additional observations from a re-analysis of the deposited data

How the results depend on the processing

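No member passed an adjusted p of 0.05 under any of 12 alternatives. At an unadjusted p under 0.05 the 1 member of the main analysis (7.85% of all probes) became 0 with normexp background correction (8.87% of all probes). There were 5 members with limma and an intensity trend (8.39% of all probes) and 5 with the methods' t-test (6.59%). Those of the t-test were Rpl15, Rpl37, Rps12, Rps2 and Rps29. Members whose groups did not overlap numbered 32, and 4 after the 75th percentile shift, where 35.3% of all probes were apart. Without 1 array the count was 51 to 61, since a group of 1 overlaps less, and 63.9% to 75.7% of all probes were apart. The median difference of the ordinary members was -0.0736 after the shift. Over all probes, 2755 unadjusted calls became 4633 with no filter on dim probes and 1596 to 4576 without 1 array, and the methods' t-test gave 1 adjusted call where limma gave 0. Of 34 named genes, 15 changed sign in at least 1 alternative. No paired analysis was possible because the groups share only 1 replicate number. The block by slide was not run because all arrays lay on 1 slide. The number of arrays limits what could be told apart. The median SE of the members was 0.120 with limma, 0.058 with the trend and 0.172 after the 75th percentile shift.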
